A study of Rattus norvegicus with 8 samples.

Results

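A set of genes used as astrocyte markers was followed in the hypothalamus of young rats whose mothers had been calorie-restricted, with or without leptin given in early life. The members were taken by symbol from a list of 10 genes: Gfap, Aqp4, S100b, Aldh1l1, Gja1, Gjb6, Sox9, Glul, Vim and Fgfr3. A probe set naming 1 gene was found for 8 of them, out of 14506 genes measured in all, and each of the 8 had a single probe set. Sox9 and Glul had no probe set in the annotation and were not analysed here. All 8 measured genes are described below, and no filter on dim signals was applied to them.

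The animals were 21-day-old female Sprague-Dawley offspring, and RNA from the hypothalamus was hybridised to 8 Affymetrix Rat Gene arrays. Control offspring came from normally fed mothers and received saline (Con-s) or leptin (Con-l). Restricted offspring came from mothers whose calories were cut by 50% from gestation day 11 to 21 and again after birth, and they too received saline (CR-s) or leptin (CR-l). Treatment ran over postnatal days 2 to 8, so the RNA was taken after treatment had ended. Each group has 2 arrays, replicates A and B. The wording of the labels leaves it unclear if mothers or pups received the injections, and pooling of animals is not stated, so the p-values measure only the spread between these samples.

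Astrocytes are the glia that wrap synapses and blood vessels, clear glutamate and potassium, and pass ions and metabolites to one another through gap junctions. In the hypothalamus they also carry leptin receptors and touch the feeding neurons of the arcuate nucleus. The marker genes cover different sides of this cell: filament proteins of the cytoskeleton (Gfap, Vim), the water channel of the perivascular endfoot (Aqp4), gap junction subunits (Gja1, Gjb6), a calcium-binding protein (S100b), an enzyme of folate metabolism (Aldh1l1) and a growth factor receptor (Fgfr3). None of them is made by astrocytes alone: Vim is also strong in tanycytes, vessels and meninges, S100b in oligodendrocyte-lineage and ependymal cells, Gja1 in meningeal cells, and Gfap and Aqp4 are dense where astrocytes line the brain surface.

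Array medians lay between 111.8 and 114.1 intensity units, so the deposited values, already processed with RMA, were on a common scale. The labelled tissue was checked on 9 hypothalamic peptide genes: 8 of them, among them Oxt, Pmch and Hcrt, exceeded the array median on every array, and Pomc was dimmer (74.1 to 95.6). Replicates of a group differed by a median of 0.08 or 0.09 on the log2 scale. Levels are given below as log2 of the deposited intensity and differences as log2 differences, and a gene was called when its Benjamini-Hochberg adjusted p over all 14506 genes in limma was under 0.05.

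Maternal restriction, averaged over saline and leptin, went with lower Gfap and with smaller differences of both signs in the other markers. Gfap, the filament protein of mature astrocytes (probe set 10747948), fell 1.91-fold (log2 -0.94, SE 0.12, 95% confidence interval -1.22 to -0.65, limma adjusted p = 0.0233), and it was the only 1 of the 8 measured members that was called. Aqp4 and S100b were lower by smaller amounts that did not pass. Aldh1l1, Gja1 and Vim differed by 0.10 or less in size, and Gjb6 and Fgfr3 were slightly higher without passing. Over all genes 1.21% were called in this comparison and 0.882% were called lower, and the called member is 12.5% of the 8.

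Gfap measured 9.79 and 9.67 on the Con-s arrays, 9.81 and 10.13 on those of Con-l, 9.30 and 8.90 on those of CR-s and 8.56 and 8.89 on those of CR-l (replicates A and B). Every restricted array lay below every control array. The geometric mean intensities were 849.5 for Con-s and 1002.6 for Con-l, against 549.9 for CR-s and 423.2 for CR-l. Among all genes Gfap had the 12th most negative diet difference, and its group means spanned 1.24, a range wider than that of 99.9% of genes. It was also one of the noisier genes, with a pooled SD within groups of 0.22, where the median gene had 0.08. Leaving out any single array ended the call: without each array in turn the difference lay between -1.04 and -0.83 and the limma adjusted p between 0.0627 and 0.0988. It ended too in a model blocked on replicate letter (adjusted p = 0.0551) and in 1 that tested all 29215 probe sets together (adjusted p = 0.0788).

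**Figure D1:**
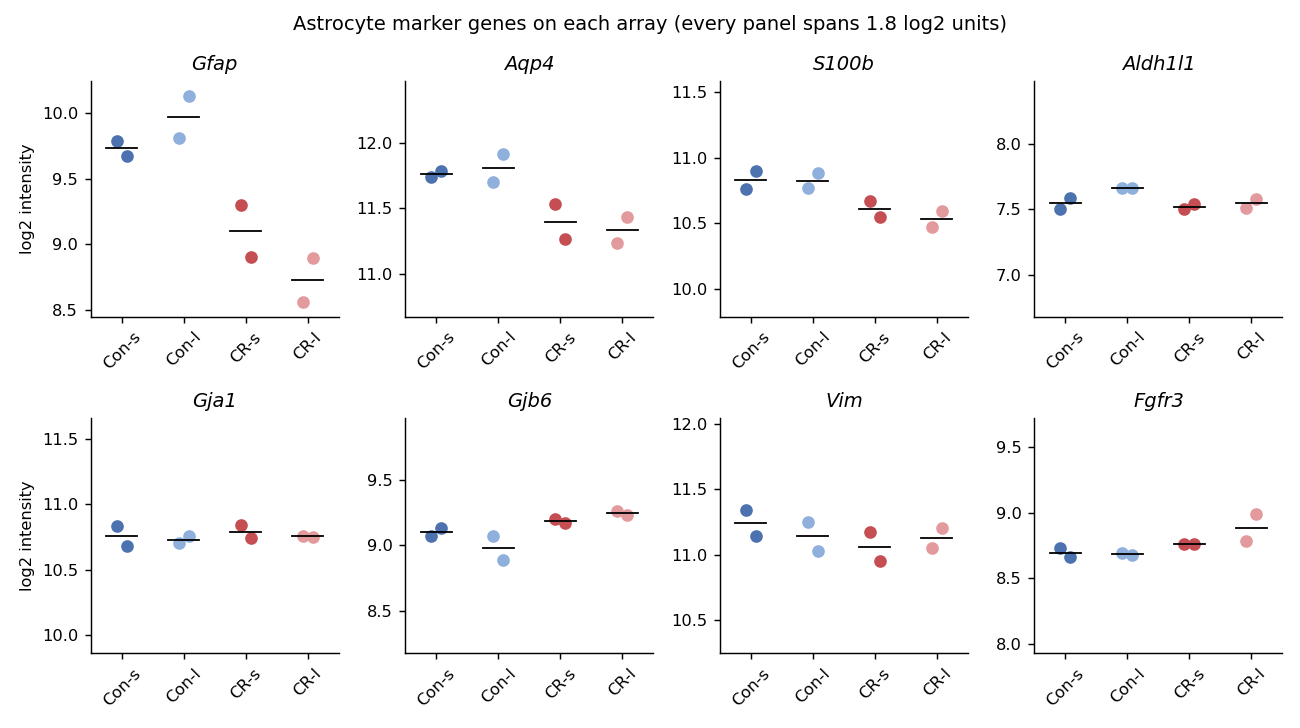
Log2 intensity (vertical axis) of the 8 measured marker genes on each of the 8 arrays, by group (horizontal axis). Points are arrays, bars are means of 2 arrays, and every panel spans the same log2 range. Gfap lies at 9.67 or above on the 4 control arrays and at 9.30 or below on the 4 restricted arrays, while the points of Gja1 stay between 10.68 and 10.84.

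The other filament gene showed no such separation of diets. Vim (vimentin, probe set 10796445) measured 11.34 and 11.14 on the Con-s arrays, 11.25 and 11.03 on those of Con-l, 11.17 and 10.95 on those of CR-s and 11.05 and 11.20 on those of CR-l. Restricted and control arrays overlapped, and the difference was -0.10 (SE 0.08, 95% confidence interval -0.29 to 0.10, limma adjusted p = 0.634). Nes and Synm, the intermediate filament genes nestin and synemin that astrocytes and their precursors share with Vim, differed by -0.01 (SE 0.08) and -0.02 (SE 0.04). Of 11 genes of the wider filament and lamin family none was called, and their median difference was -0.02. The 2 with the smallest p were the neurofilament genes Nefh (-0.15, SE 0.07) and Nefm (-0.15, SE 0.07), at limma adjusted p of 0.338 and 0.352.

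Aqp4, the water channel of the endfeet around vessels (probe set 10803305), measured 11.74 and 11.78 on the Con-s arrays, 11.70 and 11.91 on those of Con-l, 11.53 and 11.26 on those of CR-s and 11.23 and 11.43 on those of CR-l. All restricted arrays lay below all control arrays. The diet difference was -0.42 (SE 0.08, 95% confidence interval -0.62 to -0.23), 1.34-fold, at a limma adjusted p of 0.0702. It was called in 4 of the other settings, at adjusted p between 0.0216 and 0.0364. In the remaining 13 it was not called, among them each removal of 1 array and the test of all probe sets together (limma adjusted p = 0.165). Genes that work beside Aqp4 at the endfoot had values nearer zero, with the difference from Aqp4 not tested: the potassium channel genes Kcnj10 and Kcnj16 stood at -0.10 (SE 0.04, limma adjusted p = 0.27) and 0.04 (SE 0.05), Mlc1, a membrane protein of perivascular astrocytes, at 0.03 (SE 0.06), and the dystrophin gene Dmd at 0.00 (SE 0.06). Of the 7 measured genes of this list none was called, and the median was 0.03. Above zero were 6 of them, but Dmd and the gap junction gene Gjb2 only at a rounded 0.00. The second gene by p was the chloride channel gene Clcn2 (0.14, SE 0.06, limma adjusted p = 0.299).

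S100b, which encodes a calcium-binding protein released by astrocytes (probe set 10832441), measured 10.76 and 10.90 on the Con-s arrays, 10.77 and 10.88 on those of Con-l, 10.67 and 10.55 on those of CR-s and 10.47 and 10.59 on those of CR-l. Here too every restricted array was below every control array. The difference was -0.26 (SE 0.06, 95% confidence interval -0.40 to -0.12) at a limma adjusted p of 0.102. With trend and robust settings of the same model the adjusted p was 0.00891, and among the upper 60 percent of genes by mean it was 0.0341.

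The 3 lower genes shared the order of replicates in 3 of the 4 groups. Replicate B was the higher array in Con-l and CR-l, and replicate A in CR-s, for each of Gfap, Aqp4 and S100b. In Con-s the order differed, with Gfap higher on replicate A and Aqp4 and S100b on replicate B. Relative to its Con-s mean, Gfap was at -1.17 on CR-l replicate A, where Aqp4 stood at -0.53 and S100b at -0.37, the lowest array for all 3. Parts of this order were also seen in other members. Replicate A was higher in CR-s for Vim, Gja1 and Gjb6 too. Replicate B was higher in CR-l for Aldh1l1, Vim and Fgfr3, and in Con-l for Gja1. How often genes in general share such an order was not counted.

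Gja1 and Gjb6, which encode the gap junction subunits that couple astrocytes, were not lower. Gja1 (probe set 10830189) measured 10.83 and 10.68 on the Con-s arrays, 10.70 and 10.76 on those of Con-l, 10.84 and 10.74 on those of CR-s and 10.76 and 10.75 on those of CR-l. The arrays of all groups overlapped, the difference was 0.03 (SE 0.05, 95% confidence interval -0.09 to 0.15, limma adjusted p = 0.836), and its sign turned without Con-s replicate B (-0.01). The range of its group means, 0.06, was smaller than that of the median gene, 0.15.

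Gjb6 (probe set 10784120) measured 9.07 and 9.13 on the Con-s arrays, 9.07 and 8.89 on those of Con-l, 9.20 and 9.17 on those of CR-s and 9.26 and 9.23 on those of CR-l. All restricted arrays lay above all control arrays, opposite to Gfap. The difference was 0.17 (SE 0.05, 95% confidence interval 0.05 to 0.29, limma adjusted p = 0.171), and it was called only with trend and robust settings. The lowest value was that of Con-l replicate B, the array on which Gfap was highest.

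Fgfr3, a fibroblast growth factor receptor of astrocytes that oligodendrocyte precursors also express (probe set 10777748), measured 8.73 and 8.66 on the Con-s arrays, 8.69 and 8.68 on those of Con-l, 8.76 and 8.76 on those of CR-s and 8.78 and 8.99 on those of CR-l. Restricted arrays were above control arrays throughout, with the highest value on CR-l replicate B. The difference was 0.14 (SE 0.06, 95% confidence interval 0.01 to 0.27, limma adjusted p = 0.296), and it was 0.08 without CR-l replicate B (adjusted p = 0.552). Of 16 other genes of the FGF pathway none was called and the median was 0.02. The ligand gene Fgf2 stood at 0.34 (SE 0.10, limma adjusted p = 0.173) and Spry1, a feedback inhibitor induced by the receptors, at 0.14 (SE 0.05, limma adjusted p = 0.25). Both had all restricted arrays above all control arrays, as did 655 of all 14506 genes. The list had no common direction, with 10 genes above zero and 6 below. Among those below were the ligand gene Fgf1 (-0.34, SE 0.18, limma adjusted p = 0.42) and the inhibitor gene Spry4 (-0.02, SE 0.05).

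Aldh1l1, whose folate enzyme is widely used to label astrocytes in every brain region (probe set 10940520), measured 7.50 and 7.59 on the Con-s arrays, 7.66 and 7.66 on those of Con-l, 7.50 and 7.54 on those of CR-s and 7.51 and 7.58 on those of CR-l. Restricted and control arrays overlapped. The difference was -0.07 (SE 0.04, 95% confidence interval -0.17 to 0.03, limma adjusted p = 0.499).

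**Figure D2:**
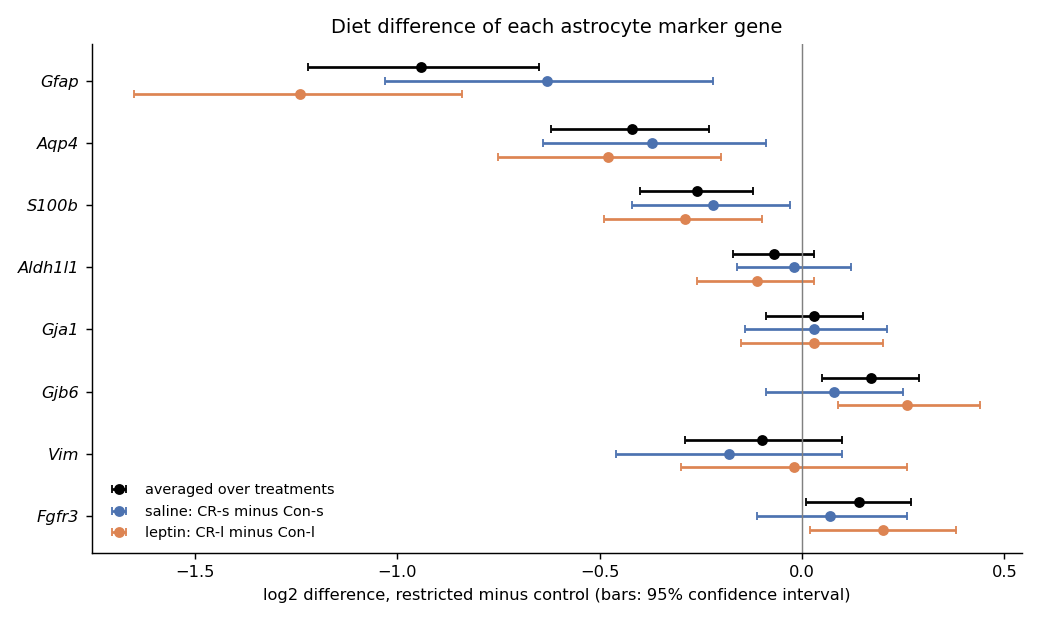
Log2 difference between restricted and control offspring (horizontal axis) for each marker gene (vertical axis), averaged over treatments (black), under saline (blue) and under leptin (orange); bars are 95% confidence intervals of the limma model. Gfap has the most negative values in each comparison (-0.94, -0.63 and -1.24), and the intervals of Gja1 and Vim include 0 in all 3.

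Restricted and control arrays did not overlap in 5 of the 8 markers, 3 lower and 2 higher in restricted offspring, which is 62.5% of them beside 11.2% of all genes. At an unadjusted p under 0.05 the same 5 markers counted, where 15.8% of all genes did. The members therefore did not move together: 5 of 8 differences were below zero, the median was -0.08, and the values ran from -0.94 to 0.17, while the median over all genes was 0.00. In bulk tissue fewer cells of a type and less RNA per cell cannot be told apart.

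Within each array the markers could be set against one another, which removes a common shift of the array. Gfap relative to Gja1 lay between -0.01 and 0.39 on the control arrays and between -1.17 and -0.51 on the restricted arrays, counted from the Con-s mean. Relative to Gjb6 it lay between -0.09 and 0.60 against -1.33 and -0.52. Relative to Aqp4 the gap was narrower, -0.08 to 0.25 against -0.64 to -0.19. The restricted arrays were lower than the control arrays for Gfap relative to each of the other 7 members. Gfap was set against the others for its largest difference, so this mostly restates its own values. This is a description of the arrays and carries no test.

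**Figure D3:**
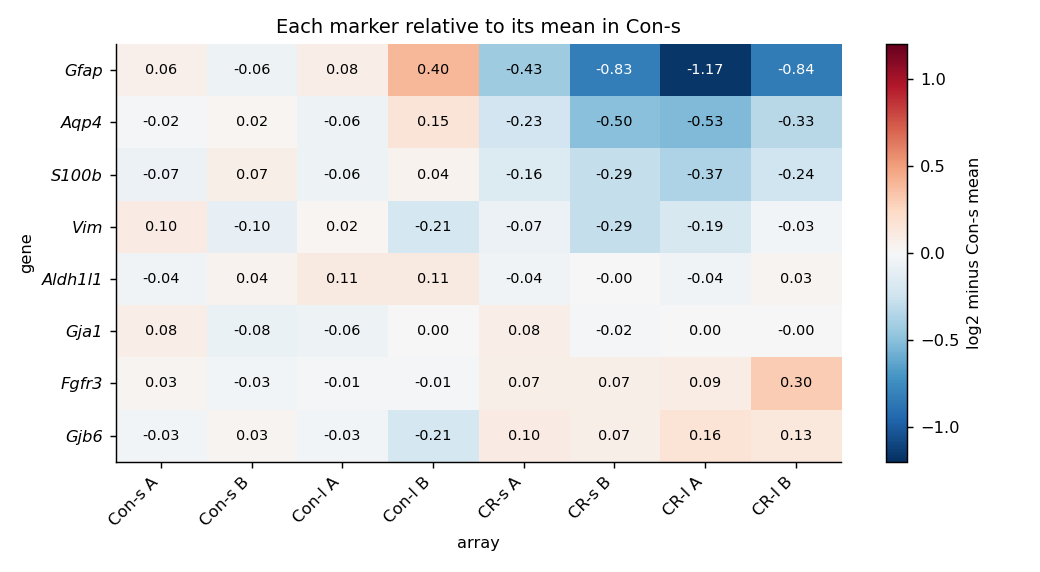
Log2 value of each marker gene (rows) on each array (columns) minus that gene's mean in Con-s; blue is lower and red higher. The restricted arrays of Gfap run from -1.17 to -0.43, those of Gjb6 from 0.07 to 0.16.

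Under saline alone (CR-s against Con-s), the effect of restriction without leptin, Gfap was 0.63 lower (difference -0.63, SE 0.17, limma adjusted p = 0.408). Aqp4 differed by -0.37 (SE 0.12, limma adjusted p = 0.457), S100b by -0.22 (SE 0.08, limma adjusted p = 0.525) and Vim by -0.18 (SE 0.12, limma adjusted p = 0.723). The other 4 markers lay between -0.02 and 0.08. No member was called and neither was any other gene (0%), with 1233 genes at an unadjusted p under 0.05 in limma and 3 of the members among them. Each arm holds 2 arrays.

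Under leptin (CR-l against Con-l) the Gfap difference was -1.24 (SE 0.17, 95% confidence interval -1.65 to -0.84), 2.37-fold, at a limma adjusted p of 0.0613. It was called with trend and robust settings (adjusted p = 0.0342), among the upper 60 percent of genes (0.0156) and with an offset of 16 added to the intensities (0.023). Aqp4 differed by -0.48 (SE 0.12, limma adjusted p = 0.162), S100b by -0.29 (SE 0.08, limma adjusted p = 0.199), Gjb6 by 0.26 (SE 0.07, limma adjusted p = 0.185) and Fgfr3 by 0.20 (SE 0.08, limma adjusted p = 0.318). None of these passed, and 0.0207% of all genes did. Vim stood at -0.02 (SE 0.12) and Gja1 at 0.03 (SE 0.07).

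Whether early leptin moved the markers was asked within each diet. After restriction, leptin-treated (CR-l) and saline-treated (CR-s) offspring differed in Gfap by -0.38 (SE 0.17, 95% confidence interval -0.78 to 0.03, limma adjusted p = 0.808), and both CR-l arrays lay below both CR-s arrays, by 0.01 for the nearest pair. That value rested on single arrays: it was -0.18 without CR-s replicate A, -0.21 without CR-l replicate A and -0.58 without CR-s replicate B. Fgfr3 stood at 0.12 (SE 0.08), Aqp4 at -0.07 (SE 0.12) and S100b at -0.08 (SE 0.08). Without restriction, Con-l differed from Con-s in Gfap by 0.24 (SE 0.17, 95% confidence interval -0.16 to 0.64, limma adjusted p = 0.997), in Aldh1l1 by 0.11 (SE 0.06) and in Gjb6 by -0.12 (SE 0.07). The Gfap value there was 0.08 without Con-l replicate B and 0.40 without Con-l replicate A. No member and no other gene was called in either comparison or in the leptin difference averaged over diets (0% each, with 849, 608 and 707 genes at an unadjusted p under 0.05 in limma and none of the members among them).

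The leptin difference of Gfap in restricted offspring minus that in controls was -0.62 (SE 0.24, 95% confidence interval -1.19 to -0.05, limma adjusted p = 0.898). It did not pass, and no gene passed this test (0%; 747 genes, Gfap among them, at an unadjusted p under 0.05 in limma). Leptin-treated restricted offspring were also set against untreated controls (CR-l against Con-s): Gfap differed by -1.01 (SE 0.17, limma adjusted p = 0.119), Aqp4 by -0.43 (SE 0.12, limma adjusted p = 0.257) and S100b by -0.30 (SE 0.08, limma adjusted p = 0.263). No member was called there, with 0.0138% of genes called. These comparisons share arrays, so they are not independent of each other.

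Other genes that astrocytes express were described on a list with 36 measured genes, chosen with earlier results of these data known. In restricted offspring, averaged over treatments, 4 of them were called, all lower (11.1%), 24 of the 36 were below zero, and the median was -0.09. Mfge8, which encodes a secreted bridge for phagocytosis, fell 1.35-fold (log2 -0.44, SE 0.04, limma adjusted p = 0.0198), from 9.71 to 9.80 on control arrays to 9.28 to 9.37 on restricted arrays. Fabp7, a fatty acid carrier of astrocytes and radial glia, fell 1.34-fold (-0.43, SE 0.06, limma adjusted p = 0.0325). Agt, the angiotensinogen gene that hypothalamic astrocytes express, fell 1.21-fold (-0.28, SE 0.04, limma adjusted p = 0.0416), and the receptor gene Gpr37l1 fell 1.18-fold (-0.24, SE 0.04, limma adjusted p = 0.0449). In all 4 the restricted arrays lay below the control arrays, as in 15 of the 36 genes in all, with none of the 36 above. Over all 14506 genes 1.21% were called and 0.882% were called lower. Restricted arrays lay below all control arrays in 967 of the 14506 genes and above them in 655.

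Further genes of that list are named here after their values were seen. The glutamate transporter genes Slc1a2 and Slc1a3 stood at 0.05 (SE 0.04) and -0.01 (SE 0.06), the glycolytic Aldoc at 0.01 (SE 0.04), the bicarbonate transporter gene Slc4a4 at 0.00 (SE 0.04) and the GABA transporter gene Slc6a11 at 0.03 (SE 0.05). These 5 are among the genes of the list nearest zero. Others were lower without passing, such as Ntsr2 (-0.32, SE 0.06, limma adjusted p = 0.0561), Phgdh (-0.31, SE 0.11), Slc25a18 (-0.23, SE 0.06) and Clu (-0.17, SE 0.05). At an unadjusted p under 0.05 in limma the list had 16 genes lower and 1 higher, beside 1311 lower and 974 higher among all 14506 genes. Pla2g7, a secreted phospholipase, had the most negative value of the list (-0.72, SE 0.18, limma adjusted p = 0.113). In the 10 genes of the glutamate and glutamine cycle none was called and the median was -0.00. The smallest p there were those of Glud1, the mitochondrial glutamate dehydrogenase gene (-0.21, SE 0.04, limma adjusted p = 0.0877), and the amino acid transporter gene Slc38a2 (-0.19, SE 0.05, limma adjusted p = 0.131), both with restricted arrays no higher than any control array.

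**Figure D4:**
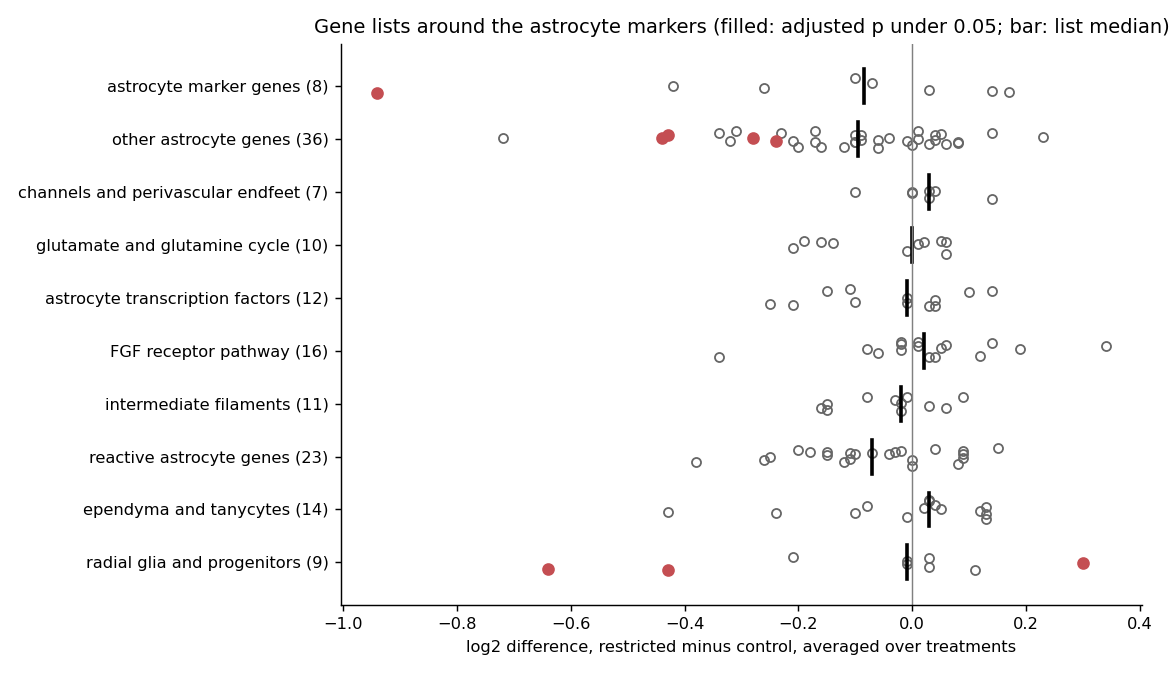
Log2 difference between restricted and control offspring averaged over treatments (horizontal axis) for the genes of 10 lists (rows, with the number measured). Filled points were called at a limma adjusted p under 0.05, open points were not, and black bars are list medians. Gfap at -0.94 lies left of every other gene shown, and the list medians lie between -0.09 and 0.03.

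Transcription factors of astrocyte development showed no call among 12 measured genes (median -0.01). Nfia, Nfib, Nfix and Sox2 stood at 0.10, 0.04, 0.04 and 0.03, and Stat3, which carries cytokine and leptin signals and drives Gfap in development, at -0.11 (SE 0.05, limma adjusted p = 0.338). The smallest p were those of Id3 (-0.25, SE 0.08, limma adjusted p = 0.202) and Hes5, a Notch target (-0.21, SE 0.07, limma adjusted p = 0.24). Genes known to rise in reactive astrocytes were not called either (0 of 23, 16 below zero, median -0.07). At an unadjusted p under 0.05 in limma 7 of the 23 were lower and 0 higher, beside 1311 lower and 974 higher of all 14506 genes. In this reactive list Lcn2 stood at -0.00 (SE 0.22) and Serpina3n at 0.04 (SE 0.07), and the smallest p were those of C3 (-0.38, SE 0.10, limma adjusted p = 0.146) and Cd44 (-0.15, SE 0.05, limma adjusted p = 0.224).

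Neighbouring cells that share these markers were read on lists of their own. Of 14 ependymal and tanycyte genes none was called and the median was 0.03, with Rarres2, an ependymal chemokine-like gene, at -0.43 (SE 0.09, limma adjusted p = 0.0767), Spag6, a gene of cilia, at 0.13 (SE 0.05, limma adjusted p = 0.266), and Rax, which defines tanycytes, at 0.04 (SE 0.07). Of 9 radial glia and progenitor genes Fabp7 fell, as given, as did Top2a of dividing cells (-0.64, SE 0.11, limma adjusted p = 0.0449), and Prom1 rose (0.30, SE 0.05, limma adjusted p = 0.0454).

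Genes of several other tissues were also lower in restricted offspring. The shares to set beside them are those of all 14506 genes: 49.7% below zero, 1.21% called and 0.882% called lower. In the meningeal list 12 of 13 genes were lower and 3 were called, and its mean level, counted from Con-s, was -0.04 to 0.04 on Con-s arrays, 0.02 to 0.31 on those of Con-l, -0.32 to -0.30 on those of CR-s and -0.40 to -0.25 on those of CR-l. In the myelin list all 15 were lower and 5 were called, with means of -0.05 to 0.05, 0.03 to 0.11, -0.28 to -0.20 and -0.34 to -0.30 in the same order. In the red blood cell list all 6 were lower and 5 were called, at -0.20 to 0.20, -0.30 to -0.20, -1.09 to -1.09 and -1.39 to -0.99. In the list of vessel cells 11 of 16 were lower and 2 were called (0.00 to 0.00, -0.03 to 0.06, -0.10 to -0.08 and -0.06 to -0.02), with a median of -0.05. The choroid plexus list was not lower as a whole: 5 of 8 genes were higher and its median was 0.01. Its array means (-0.03 to 0.03, -0.10 to 0.03, -0.18 to -0.13 and -0.16 to -0.12) carry the 1 called gene, Kcnj13 (-1.17, SE 0.14), beside Ttr at 0.04 and Clic6 at 0.14. No marker was at 0 on any array, since the arrays report a signal for every probe set. The part of these tissues in the fall of Gfap was not tested. Lists of neurons (14 genes, median 0.03), microglia (15, median 0.00) and oligodendrocyte precursors (8, median -0.11) had no call.

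The examples that led these lists were Ogn (-1.21, SE 0.13), Slc6a13 and Col1a2 among meningeal genes, Enpp2 (-0.76, SE 0.06), Ermn, Ndrg1 and Cnp among myelin genes, Hbb-b1 (-1.42, SE 0.17), Ahsp, Alas2 and Slc4a1 among red cell genes, Tagln and Rgs5 among vessel cells, and Kcnj13 of the choroid plexus. Each fell at a limma adjusted p of 0.0449 or less. In the lists without a call the smallest p were those of Olig1 (-0.20, SE 0.04) and Vcan (-0.16, SE 0.04), Rbfox3 (0.10, SE 0.04) and Tubb3 (-0.11, SE 0.05), and Itgam (-0.35, SE 0.07) and Lyve1 (0.26, SE 0.06). Over all the lists, with 233 measured entries, 22 genes other than the members were called, beside 175 of all 14506 genes (1.21%). Fewer were called, both in the lists and among all genes, when any 1 array was left out.

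The profile most like that of Gfap over the 8 arrays, by the root mean square difference of values centred on each gene's mean, was that of Enpp2, the autotaxin gene of oligodendrocytes and choroid plexus (0.21). Serpinh1, a collagen chaperone, followed at 0.22 and Erbb3, a neuregulin receptor of oligodendrocytes, at 0.24, where a flat profile would lie at 0.52. All 3 fell in restricted offspring, Serpinh1 by 0.62 (difference -0.62, SE 0.04) and Erbb3 by 0.80 (difference -0.80, SE 0.06). Their fall follows from the choice, since the measure selects genes with values close to those of Gfap. No gene of the astrocyte list was among the 3. The measure also counts the size of the differences, so genes with smaller ones lie further away. It therefore cannot show which cell type the Gfap profile follows.

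The regions just before the start sites of 9 of the 10 listed genes were read from RefSeq (build GRCr8), 12 start sites in all. They were searched on both strands, over 250 bases, for a STAT motif (TTCCNGGAA), a SOX motif (ACAAAG or ACAATG), an AP-1 motif (TGANTCA), and the palindromic NFI and glucocorticoid receptor motifs, and no match overlapped another. Matches were found at 3 start sites: AP-1 in Gja1, and SOX in the second start site each of Aqp4 and Gjb6. Among all 33469 such RefSeq windows, 6.34% hold the AP-1 motif, 25.3% a SOX motif, 1.07% the STAT motif, 0.0359% the NFI motif and 0.373% the glucocorticoid motif. The windows are shown for Gfap, the member that fell, at chr10:88361662-88361911 (minus strand), and for the gap junction genes, which were not lower. These are Gja1 at chr20:36302314-36302563 (plus strand) and the second start site of Gjb6 at chr15:35408963-35409212 (minus strand). Each is written from 5′ to 3′ in the direction of transcription, with motif matches in capitals:
Gfap: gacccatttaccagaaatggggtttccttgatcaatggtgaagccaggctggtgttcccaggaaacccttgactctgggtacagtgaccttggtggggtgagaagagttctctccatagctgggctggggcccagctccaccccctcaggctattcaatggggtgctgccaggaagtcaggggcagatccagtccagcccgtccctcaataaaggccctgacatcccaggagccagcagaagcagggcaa
Gja1: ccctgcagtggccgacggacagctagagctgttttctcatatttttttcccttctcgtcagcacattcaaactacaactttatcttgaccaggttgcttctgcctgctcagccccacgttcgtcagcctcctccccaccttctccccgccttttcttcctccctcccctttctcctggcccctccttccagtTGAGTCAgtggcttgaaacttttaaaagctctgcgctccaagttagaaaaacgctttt
Gjb6: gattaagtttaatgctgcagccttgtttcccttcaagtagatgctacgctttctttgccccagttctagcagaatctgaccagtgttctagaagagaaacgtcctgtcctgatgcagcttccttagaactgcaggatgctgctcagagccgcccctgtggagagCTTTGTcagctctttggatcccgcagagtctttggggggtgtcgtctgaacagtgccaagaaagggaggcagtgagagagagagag
The Gja1 window holds TGAGTCA from 58 to 52 bases before the start, and the Gjb6 window holds CTTTGT, the SOX motif on the other strand, from 86 to 81 bases before it. The Gfap window has no match, which says only that these letters are not in it. The first start site of Gjb6 has none either, nor have S100b, Aldh1l1, Vim and Fgfr3. Aqp4, which was lower without passing, has a SOX match, so matches did not separate lower members from the others.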

How the data were processed

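Hypothalamic RNA of 8 samples was measured on 8 arrays, 2 for each of 4 groups taken from the sample titles; a design note writes Con-r where the titles have Con-l. The authors deposited linear intensities for each probe set, made with RMA in Affymetrix Expression Console per the submitters' processing notes; the version and a genome build are not given in the sources used here. They were log2-transformed and not normalized again. Of 29215 probe sets 15310 had 1 gene symbol in the platform annotation, with symbols updated through RefSeq (15279 by Entrez number, 6 by accession, 25 kept), and the brightest of several probe sets was kept for 527 genes, which gave 14506 genes.

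A limma model (limma 3.58.1, R 4.3.3) with 4 group means was fitted to all 8 arrays (4 residual and 3.21 prior degrees of freedom), and 8 two-sided comparisons were read from it. It was tested on simulated data first. Tables and plots used Python 3.11.15, pandas 2.3.3 and matplotlib 3.10.9. The members, the 17 other gene lists (233 of 271 entries measured) and the tests were chosen with earlier results of these data known. Named genes are all members, up to 4 called genes or else the 2 smallest p of each other list, and the 3 profiles nearest a called member; other names were chosen after their values were seen. The settings varied were 9 choices of scaling, filter, probe set, model or block, and the removal of each array. The number of arrays limits the precision.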

Additional observations from a re-analysis of the deposited data

Results flagged for a closer look

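The leptin difference of Gfap had opposite directions in the diets: both CR-l arrays lay below both CR-s arrays, and both Con-l arrays above both Con-s arrays. The difference between them was -0.62 (limma adjusted p = 0.898), and the nearest arrays were 0.01 apart within restricted offspring. The nearest control arrays were also close, with Con-l replicate A at 9.81 and Con-s replicate A at 9.79. Gjb6 showed the reverse, with CR-l above CR-s and Con-l below Con-s, and a difference of 0.18 (limma adjusted p = 0.898). Such opposite, separate leptin differences occurred in 909 genes, 6.27% of all.

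Among the 4 restricted arrays, CR-s replicate A stood apart from the others for Gja1 (gap of 0.84 of the range) and CR-l replicate B for Fgfr3 (0.93 of the range), each beyond Dixon's critical value. For Gja1 the range is narrow: 10.84 beside 10.74 to 10.76, a gap no larger than the 0.08 or 0.09 by which replicates of a median gene differed, and Con-s replicate A was at 10.83. With 16 sets of 4 arrays examined, each mixing both treatments, chance flags about 5% of sets.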

How the results depend on the processing

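All 8 members kept the sign of their averaged diet difference in every setting, except Gja1, which ran from -0.01 without Con-s replicate B to 0.07 without Con-s replicate A. The number of members called in that comparison was 1; it was 3 among the upper 60 percent of genes, 4 with trend and robust settings, 2 with an offset of 16, 2 with diet as the only factor, 0 with all probe sets, and 0 with any 1 array left out. Genes called numbered 175, and in the first 5 of these settings 609, 744, 345, 267 and 0; without 1 array they numbered 0 to 27. Genes called in the other lists numbered 22, with 37 in the upper 60 percent, 46 with trend and robust settings, 0 with all probe sets, and 0 to 6 without 1 array. With the replicate letter as a replicate block the counts were 0 members, 87 genes and 14 list genes; same-letter deviations correlated at -0.06 to 0.11 between groups, so the letters were not taken to pair the arrays. Under leptin the members called were 1 in the upper 60 percent, 3 with trend and robust settings and 1 with the offset, where the main count was 0; for CR-l against Con-s they were 1 in the upper 60 percent and 1 with trend and robust settings. Quantile normalization, cyclic loess and the mean of probe sets changed none of these counts by over 1.5 times, and no setting moved the median of all genes by over 0.01. The interaction could not be fitted with the compared arrays alone. The cause of these changes was not tested. Some of the settings also have fewer arrays or more features than the main one.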
